A study of Mus musculus with 12 samples.

Results

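The mitochondrial ribosomal protein genes are the nuclear genes named Mrpl for proteins of the large subunit and Mrps for proteins of the small subunit. Members were the annotated protein-coding genes on the assembled chromosomes whose symbol is Mrpl or Mrps followed by a number, which gave 78 of 53028 genes in the table. All 78 reached 1 CPM (read abundance scaled to a library size adjusted by the authors) in at least 3 libraries and were among the 16486 genes tested. Poly(A) RNA of mouse retina came from 4 groups with 3 libraries each, 12 in all. The wild-type groups carried Pilrb1/2+/+ and the knockout groups Pilrb1/2 -/-, and each genotype was sampled 28 days after birth (P28) and at 12 months. The deletion was made with CRISPR in C57BL/6J zygotes and bred back to C57BL/6J, so all groups shared that strain. The series text names Pilra beside Pilrb1/2 as deleted, while the sample labels name Pilrb1/2 only. The labels do not say how many founders the mice descend from or whether the 3 libraries of a group are separate animals, so p-values measure the spread between these libraries.

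Mitochondria keep their own ribosome, which translates the few membrane proteins of the respiratory chain encoded by mitochondrial DNA. Its ribosomal RNA comes from mitochondrial DNA, while all its proteins are made in the cytosol from nuclear genes and imported. Some of these proteins descend from the bacterial ribosome and others are particular to mitochondria. Photoreceptors are among the cells richest in mitochondria, which are packed into the inner segment beside the outer segment that detects light. By the family nomenclature 51 members belong to the large subunit, including Mrps30 and Mrps18a in spite of their names, and 26 to the small subunit. Mrps36 is now placed in the 2-oxoglutarate dehydrogenase complex and was given no subunit. Of the 77 others, 45 have a bacterial counterpart and 32 do not.

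The genes lie on 17 chromosomes, 11 of them on chromosome 11. Because nuclear genes for mitochondrial proteins are known for binding sites of NRF1, of ETS factors such as GABP and of YY1 near their start sites, RefSeq promoter windows (GRCm38.p6, 300 bases each, most of them before the start site) were searched on both strands. Of the 78 members 69 were matched, with 75 promoters. The NRF1 letters GCGCATGCG were in 9.33% of the members' promoters and in 1.75% of all 32841 promoters. The ETS letters CCGGAAG were in 34.7% against 8.86%, the YY1 letters AAGATGGCG in 10.7% against 1.40%, and the ZNF143/THAP11 letters ACTACAATT in 0 of 75 against 0.393%. The members' promoters had a median GC content of 58.7%, against 52.7% for all promoters, and no search took that difference into account. A match is a description of letters and shows no binding. The 4 promoters printed here show an NRF1 match with an ETS match (Mrpl17, chr7:105811038-105811337, minus strand, and Mrps18b, chr17:35916391-35916690, minus strand), a YY1 match (Mrps11, chr7:78782881-78783180, plus strand) and repeated NRF1 matches (Mrpl32, chr13:14612988-14613287, minus strand). Each is written 5′ to 3′ along its gene, with matches on either strand in capitals, and in Mrpl32 the first run of capitals holds overlapping matches on the 2 strands.
Mrpl17: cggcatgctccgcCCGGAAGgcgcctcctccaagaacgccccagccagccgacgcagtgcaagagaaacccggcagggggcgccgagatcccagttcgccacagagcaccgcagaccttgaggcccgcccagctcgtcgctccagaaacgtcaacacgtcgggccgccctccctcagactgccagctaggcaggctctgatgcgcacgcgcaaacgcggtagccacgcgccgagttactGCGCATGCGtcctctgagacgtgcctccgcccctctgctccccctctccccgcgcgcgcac
Mrps18b: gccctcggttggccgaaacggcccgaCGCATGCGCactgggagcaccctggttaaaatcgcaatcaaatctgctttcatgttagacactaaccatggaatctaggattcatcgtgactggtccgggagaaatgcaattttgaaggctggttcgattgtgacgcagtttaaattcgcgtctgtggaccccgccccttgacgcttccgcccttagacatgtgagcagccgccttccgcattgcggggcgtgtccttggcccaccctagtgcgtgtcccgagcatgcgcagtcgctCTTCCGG
Mrps11: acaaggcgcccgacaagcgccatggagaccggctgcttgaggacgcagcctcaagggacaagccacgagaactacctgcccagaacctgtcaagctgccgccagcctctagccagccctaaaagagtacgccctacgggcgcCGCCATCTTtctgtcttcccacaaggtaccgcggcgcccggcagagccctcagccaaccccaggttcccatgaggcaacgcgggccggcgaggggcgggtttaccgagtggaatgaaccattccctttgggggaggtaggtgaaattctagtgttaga
Mrpl32: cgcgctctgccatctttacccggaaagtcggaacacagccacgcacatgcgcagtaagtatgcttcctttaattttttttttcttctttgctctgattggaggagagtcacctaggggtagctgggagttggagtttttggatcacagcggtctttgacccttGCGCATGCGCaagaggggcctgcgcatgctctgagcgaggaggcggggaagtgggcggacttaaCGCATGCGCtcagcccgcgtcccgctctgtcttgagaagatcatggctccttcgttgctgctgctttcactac

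A second set of sequences shows the base composition along which the members separated at 12 months. The first 120 coding bases of 4 main transcripts, that is, the transcript of the gene with the highest mean level, were taken from GENCODE M21 on GRCm38, with the start codon in capitals. Mrps34 and Mrpl54 are members of high GC content (60.6% and 60.4% over the whole main transcript) and Mrpl50 and Mrpl1 of low GC content (42.3% and 41.4%). Over the 120 bases printed, the GC content was 65.8% in Mrps34, 64.2% in Mrpl54, 55% in Mrpl50 and 50% in Mrpl1.
Mrps34: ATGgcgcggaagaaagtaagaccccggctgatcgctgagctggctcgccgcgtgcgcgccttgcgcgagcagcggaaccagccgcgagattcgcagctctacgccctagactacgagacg
Mrpl54: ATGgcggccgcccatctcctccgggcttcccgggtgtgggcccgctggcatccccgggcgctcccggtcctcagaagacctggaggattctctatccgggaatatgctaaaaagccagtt
Mrpl50: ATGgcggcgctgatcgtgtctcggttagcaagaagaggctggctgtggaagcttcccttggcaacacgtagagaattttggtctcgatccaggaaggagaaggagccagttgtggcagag
Mrpl1: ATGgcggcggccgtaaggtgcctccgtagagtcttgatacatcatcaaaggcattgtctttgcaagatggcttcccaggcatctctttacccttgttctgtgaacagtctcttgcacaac

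Depth read back from the deposited values was 14.7 to 25.9 M reads a library, so that 3 reads equalled 0.111 to 0.192 CPM. Pilrb1 and Pilrb2 were at 0 in 11 of 12 libraries each, with a highest value of 0.0520 and 0.0436 CPM, below 3 reads, so the knockout could not be checked from them and groups are named as labelled. Pilra was at 0.133 to 0.170 CPM in P28 wild type and 0.441 to 1.16 CPM in P28 knockout, and at 12 months at 0.159 to 0.268 CPM for wild type and 0.0556 to 0.309 CPM for knockout, which overlapped. The summed CPM of 8 rod genes, none of them at 0, was 31759.6 to 42708.4 in P28 wild type, 22074.5 to 28111.3 in P28 knockout, and at 12 months 35811.3 to 42959.1 for wild type and 21631.7 to 28590.4 for knockout. Other cell types also differed between genotypes without overlap. Summed markers at 12 months were lower in knockout for cones (863 to 968 against 1244 to 1355 CPM) and Mueller glia (2198 to 2404 against 2508 to 2795), and higher for bipolar cells (1426 to 1509.6 against 1371 to 1403), amacrine cells (604.02 to 658 against 557 to 597), ganglion cells (655 to 721 against 581 to 642) and horizontal cells (153 to 184 against 115 to 122). Bipolar markers were higher without overlap at P28 as well (1359 to 1628 against 1224 to 1349.6), as were microglia markers (18.4 to 21.8 against 15.3 to 17.6). Erythrocyte genes were lower without overlap at P28 (12.6 to 23.6 against 32.5 to 49.6) and at 12 months (4.33 to 9.94 against 19.2 to 34.1). At 12 months microglia (14.7 to 16.2 against 17.9 to 22.4) and astrocyte markers (4.19 to 9.54 against 9.80 to 12.5) were lower too. Endothelial and pericyte markers were then higher (124 to 127 against 111 to 120). All genes on mitochondrial DNA, its 13 mRNAs and 2 rRNAs among them, took 7.36 to 9.31% of the signal in P28 wild type and 4.56 to 7.08% in P28 knockout, then 7.36 to 8.29% and 9.94 to 12.6% at 12 months. Lens genes, 11 of 11 above 0, reached 5648 CPM summed in P28 knockout library 2, 2129.8 in P28 wild-type library 3 and 777 in 12-month knockout library 2, against 22.8 to 687 elsewhere. Xist exceeded 100 CPM in P28 knockout libraries 2 and 3 and in 12-month wild-type libraries 1 and 2, so the sexes were not balanced between genotypes. The part of rods and the other cell types, mitochondrial RNA, lens RNA and sex in the results on Mrp genes was not tested, except where a value without a library or with a sex term is given.

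To rank the members, transcript RPKM (reads scaled to transcript length and library size) was summed over each gene. The mean level over the 12 libraries ran from 3.04 to 63.6 RPKM with a median of 11.9, against 6.75 for all genes tested. Large-subunit members had a median of 12.2 RPKM and small-subunit members of 10.03 RPKM. Mrps33, a small-subunit protein particular to mitochondria, was highest, at 68.8 ± 4.45 RPKM in P28 wild type, 58.2 ± 2.85 in P28 knockout, and at 12 months 62.6 ± 1.41 for wild type and 64.7 ± 4.35 for knockout (SD, n = 3). Mrpl49 and Mrpl24 followed, with overall means of 46.1 and 42.3 RPKM. The lowest were Mrps34 at 3.49, Mrpl23 at 3.07 and Mrpl12, the factor-binding stalk protein, at 3.04 RPKM. Only 4 of the 77 steps between neighbours in this order were larger than the greater SD of the pair (12 libraries around their group means), so most neighbouring ranks did not differ beyond their spread.

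**Figure D1:**
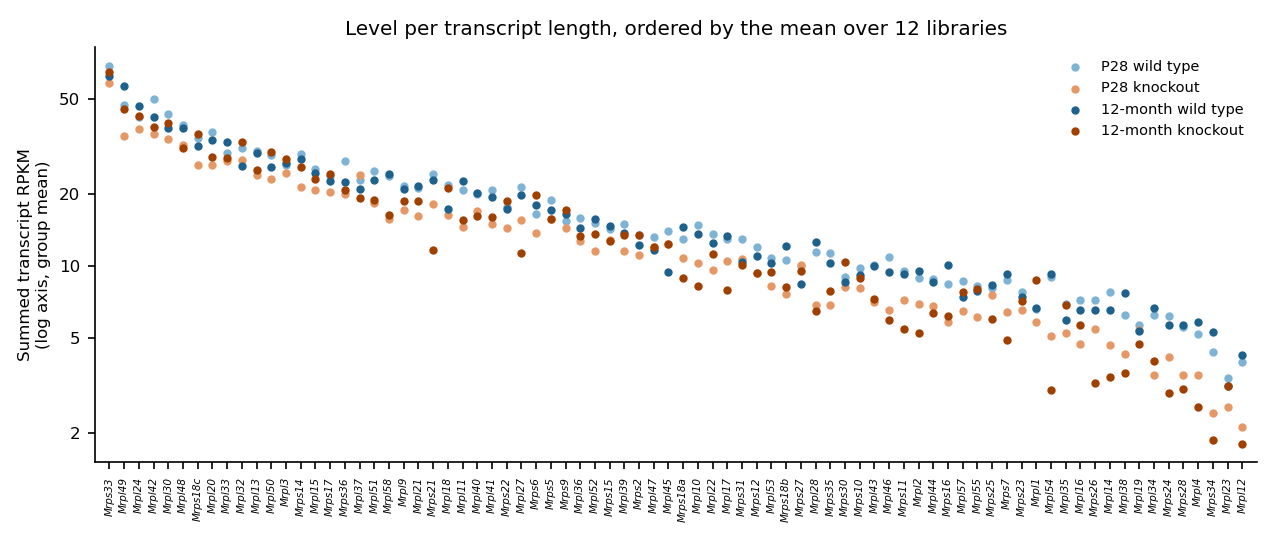
Summed transcript RPKM of the 78 Mrp genes on a log axis, 1 point per group mean (3 libraries each), ordered by the mean over all libraries. The order runs from Mrps33 at 63.6 to Mrpl12 at 3.04 RPKM, and among the lowest members Mrps34 and Mrpl12 have their knockout points below their wild-type points.

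Some of these levels are uncertain in their source. Mrps23 and Mrps10 each have a copy on a patch scaffold with about the same CPM (for Mrps23 8.24 ± 0.389 in P28 wild type, for Mrps10 13.3 ± 0.774, SD, n = 3), so reads of the 2 entries could not be told apart and the level of each is uncertain. The pseudogene Mrpl23-ps1 was at 0.917 to 8.13 CPM, against 1.85 to 4.63 CPM for Mrpl23 itself, and reads of the pair could be split. The genes of 25 members overlap another tested gene, 23 on the opposite strand and 4 on the same strand (Mrpl53 with Gm42688, Mrps24 with Urgcp, Mrps34 with Nme3 and Mrps6 with Slc5a3). Mrpl46 and Mrps11 are a head-to-head pair whose annotated starts overlap by 413 bases on chromosome 7 (GRCm38, chr7:78783119-78783531). The library kit marks strand, but whether quantification used it is not given in the sources used here.

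At P28, the knockout was compared with wild type. Almost every member had an estimate below 0, but none passed the test across all genes, and the log2 fold changes, on the log2(CPM + 1) scale used throughout, ranged from -0.77 to 0.12. The estimate was below 0 for 75 of 78 members, against 52.3% of all genes tested, and the exceptions were Mrpl19, Mrpl37 and Mrps27. The median log2 fold change was -0.32 over the members and -0.01 over all genes. Called by limma with Benjamini-Hochberg adjustment were 0 of 78 members, with 1.49% of all genes called. An unadjusted p under 0.05 was found for 42 of 78 members, against 3533 of all 16486 genes tested. All 3 knockout libraries lay below all 3 wild-type libraries in 48 of 78 members, against 13.2% of all genes, and above them in 0 of 78, against 10.5%. In bulk tissue, fewer cells rich in these mRNAs and less mRNA per cell cannot be told apart.

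The summed CPM of the members gave the same picture. It was 1759.8, 1538 and 1607 CPM in the P28 wild-type libraries and 1385, 1359 and 1299 CPM in the P28 knockout libraries, so the groups did not overlap. The median deviation of the members from their own mean over 12 libraries was 0.27, 0.09 and 0.14 in P28 wild type and -0.11, -0.12 and -0.23 in P28 knockout, on the log2 scale. For all genes tested that median stayed between -0.03 and 0.03 in every library.

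**Figure D2:**
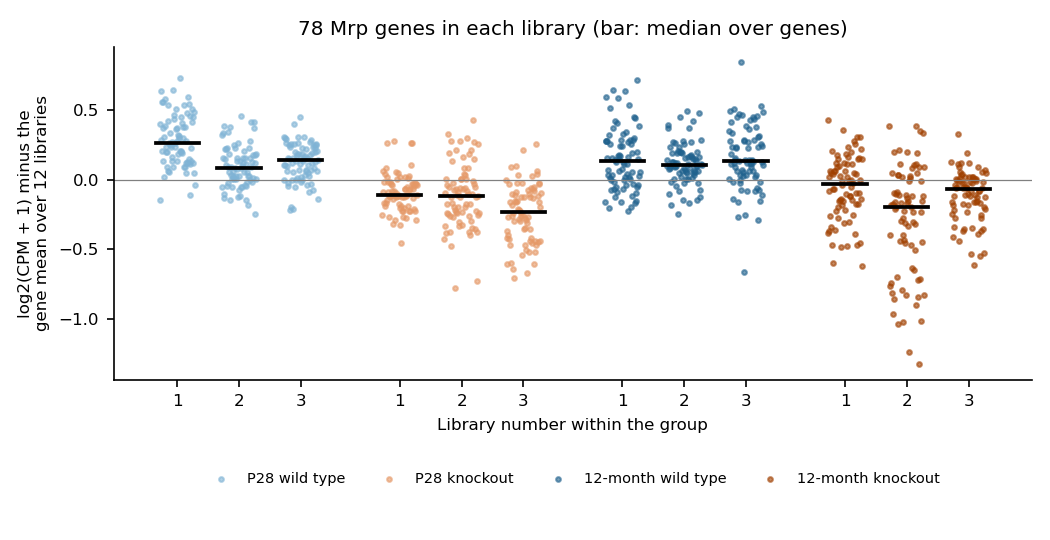
Each point is 1 of the 78 Mrp genes in 1 library, as log2(CPM + 1) minus that gene's mean over the 12 libraries, and the black bar is the median over genes. The bars lie between 0.09 and 0.27 in the wild-type libraries and between -0.23 and -0.03 in the knockout libraries, and the points of 12-month knockout library 2 reach furthest down.

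The smallest adjusted p at P28 belonged to Mrpl51, a large-subunit protein particular to mitochondria. Its wild-type values were 38.2, 33.4 and 35.7 CPM and its knockout values 26.6, 29.0 and 24.9 CPM, without overlap (log2 fold change -0.40, SE 0.10, adjusted p = 0.0595). Mrps35, of the small subunit, had the largest difference at P28. Wild-type libraries held 24.4, 22.9 and 20.3 CPM and knockout libraries 14.3, 9.77 and 15.0 CPM (-0.77, SE 0.21, adjusted p = 0.0727). The stalk protein Mrpl12, which also binds the mitochondrial RNA polymerase, was at 6.33, 4.95 and 4.06 CPM against 3.65, 2.62 and 2.10 CPM (-0.69, SE 0.19, adjusted p = 0.0739). In all 3 of these genes the groups stood apart, and in none did the difference pass.

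The lower estimates at P28 were spread over the structure of the ribosome. Across the 78 members the Spearman correlation of the log2 fold change with the GC content of the main transcript was -0.49, and across the 16274 genes with a value it was -0.35. Of the large-subunit members 49 of 51 and of the small-subunit members 25 of 26 were below 0, with medians of -0.33 and -0.25. Members with a bacterial counterpart had a median of -0.30 and those particular to mitochondria of -0.33. Among role groups, the stalk proteins Mrpl10, Mrpl11 and Mrpl53 were at -0.48, -0.46 and -0.31. Mrpl38, Mrpl40, Mrpl46, Mrpl48 and Mrps30 of the central protuberance, which faces the small subunit, were at -0.33, -0.20, -0.65, -0.22 and -0.11. At the exit of the nascent chain, Mrpl22, Mrpl23, Mrpl24, Mrpl44 and Mrpl45, the last an anchor to the inner membrane, were at -0.42, -0.32, -0.14, -0.31 and -0.10. Mrpl3, mutated in human mitochondrial cardiomyopathy, was nearest to 0 among the negative estimates, at -0.05 with a 95% interval of -0.23 to 0.13.

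Which calls are made at P28 depended on the libraries and the weighting. Without P28 knockout library 2, the one with most lens RNA, 7 members were called, all lower, and without P28 knockout library 1, 2 were, while 74 and 75 members were still below 0. With libraries weighted by their quality in limma, 15 members were called, all lower. The share of all genes called in these fits is not given here, so the counts stand without a background. With a term for Xist, 76 members were below 0 and 0 were called. After removal of a smooth trend on GC content and transcript length from each library, 73 of 78 members were below 0, against 52.2% of all genes, the median was -0.18 and 0 were called.

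At 12 months the members ranged more widely, from -1.25 to 0.35. Of 78 members, 30 fell and 1, Mrpl32, rose (limma, adjusted p under 0.05). Of all genes tested, 39.6% were called, 23.5% lower and 16.1% higher, so lower calls were 30 of 78 members where the background gives 23.5%. With quantile normalization 18 members fell and 5 rose, and the share of all genes called in that fit is not given here. The estimate was below 0 for 59 of 78 members, against 52.5% of all genes, and the median was -0.19, against -0.03 for all genes. With quantile normalization 44 of 78 were below 0, again without the share of all genes in that fit. Libraries did not overlap in 40 members that were lower, against 32.2% of all genes, and in 3 that were higher, Mrpl1, Mrpl32 and Mrps2, against 27% of all genes. Summed CPM was 1600.4, 1584 and 1605 in the wild-type libraries and 1490.2, 1344 and 1417 in the knockout libraries, again without overlap.

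**Figure D3:**
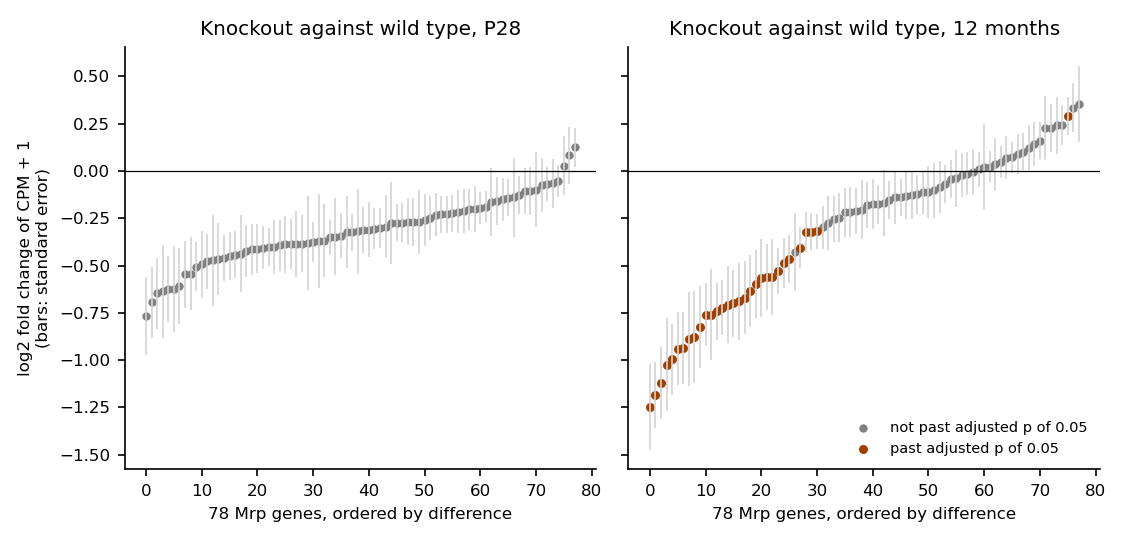
log2 fold change of knockout against wild type for the 78 Mrp genes at P28 (left) and at 12 months (right), each panel in its own order, with standard errors. At P28 75 of 78 estimates lie below 0, from -0.77 to 0.12 in all, and none passed the test; at 12 months they range from -1.25 to 0.35, with 30 lower and 1 higher past an adjusted p of 0.05.

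The largest falls were in members of low level. Mrpl54, a large-subunit protein particular to mitochondria (GRCm38 chr10:81264713-81266934), had wild-type values of 6.16, 5.49 and 4.93 CPM and knockout values of 2.31, 0.953 and 2.18 CPM (log2 fold change -1.25, SE 0.23, adjusted p = 0.00316). Mrps34, a small-subunit protein mutated in human Leigh syndrome (chr17:24895116-24897502), was at 6.13, 5.03 and 5.26 CPM against 2.16, 1.14 and 2.38 CPM (-1.19, SE 0.18, adjusted p = 0.00256). Every knockout library was below every wild-type library in both genes, and library 2 was the lowest of the knockouts. Mrpl4, a protein lining the exit tunnel, was at 11.4, 10.3 and 10.5 CPM against 4.93, 3.08 and 5.47 CPM (-1.12, SE 0.19, adjusted p = 0.0029). Mrpl12 was at 6.12, 5.10 and 5.64 CPM against 2.65, 1.82 and 2.54 CPM (-0.996, SE 0.19, adjusted p = 0.00336). Mrps26 and Mrps7, a protein of the head of the small subunit, fell by 1.02 and 0.94. In each of these genes library 2 was again the lowest knockout library.

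Mrpl32, the member that rose, is a large-subunit protein whose maturation by the m-AAA protease is known to control assembly of the ribosome. The 12-month wild-type libraries held 34.3, 36.4 and 31.0 CPM of it and the knockout libraries 42.6, 43.7 and 38.4 CPM (0.29, SE 0.10, adjusted p = 0.0374). The groups did not overlap, but the call was made in 2 of the 6 fits that left out a library of these groups. Mrpl1, of the stalk at which spent tRNA leaves, was at 19.8, 23.8 and 22.3 CPM against 30.3, 29.3 and 24.4 CPM, also without overlap, and missed the threshold (0.33, SE 0.13, adjusted p = 0.0560). With the GC and length trend described further on removed, Mrpl1 was at -0.02.

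**Figure D4:**
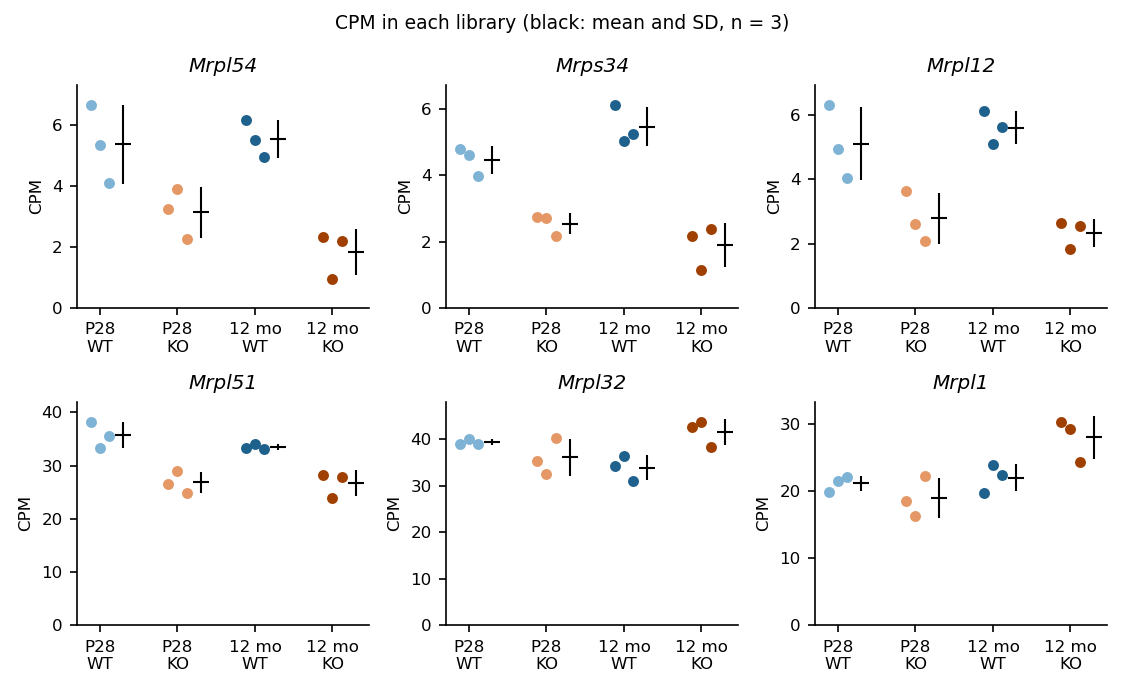
CPM of 6 Mrp genes in each of the 12 libraries, with mean and SD (n = 3) in black and all axes starting at 0. In Mrpl54, Mrps34, Mrpl12 and Mrpl51 the knockout libraries lie below wild type at both ages, while in Mrpl32 and Mrpl1 the 12-month knockout libraries lie above their wild type.

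By role, the falls at 12 months took in parts of both subunits. Of the stalk proteins Mrpl10 and Mrpl11 fell by 0.72 and 0.53 besides Mrpl12, and Mrpl53 was at -0.10. In the central protuberance Mrpl38, Mrpl46 and Mrpl40 fell by 0.93, 0.63 and 0.32, while Mrpl48 was at -0.30 (adjusted p = 0.0519) and Mrps30 at 0.23. At the tunnel exit Mrpl44 fell by 0.40, and Mrpl22, Mrpl23, Mrpl24 and Mrpl45 were at -0.08, 0.02, -0.14 and 0.35 without passing. Mrps12 and Mrps5, near the decoding centre and the mRNA entry, were at -0.14 and -0.15, neither called. Of the 3 relatives of bacterial S18, Mrps18a and Mrps18b fell by 0.60 and 0.49 and Mrps18c was at 0.23. Mrpl58, a peptidyl-tRNA hydrolase built into the large subunit, fell by 0.56. With the GC and length trend removed, Mrps18a and Mrpl58 were at 0.09 and 0.07.

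Several members are known from human disorders of mitochondrial translation. Mrps34, Mrps7, Mrpl12 and Mrpl44 fell as above, and Mrps16, linked to neonatal lactic acidosis, fell by 0.69. Mrps2, Mrps22, Mrps23 and Mrpl3, also known from such disorders, were at 0.10, 0.07, -0.02 and 0.02 and none was called. For Mrpl3 the 95% interval was -0.16 to 0.20. Mrps9 and Mrps15 of the small subunit were at 0.01 and -0.21, and Mrps36, which has left the ribosome list, was at -0.11. By subunit, 20 of 51 large-subunit and 10 of 26 small-subunit members fell, against 23.5% of all genes. Of members with a bacterial counterpart 16 of 45 fell, and of those particular to mitochondria 14 of 32. With the GC and length trend removed, 3 large-subunit and 0 small-subunit members fell, and 5 and 1 rose. Of members with a bacterial counterpart 2 then fell and 2 rose, and of those particular to mitochondria 1 fell and 4 rose. Of all genes 3.06% then fell and 3.56% rose.

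The members that fell at 12 months differed from the others in the base composition of their main transcript. Of the 26 members with the highest GC content 19 fell, of the 26 in the middle 10, and of the 26 with the lowest GC content 1. Of all genes tested, at any GC content, 23.5% fell, and the share among all genes of the same GC content is not given here. The medians of these 26 members each were -0.68, -0.20 and -0.05, from the highest to the lowest GC content. Across the 78 members the Spearman correlation of the log2 fold change with GC content was -0.65 and with transcript length 0.12, and across 16274 genes with a value it was -0.78 with GC content, so the members followed a relation that the whole table showed. These correlations are across genes of the same 12 libraries and describe those libraries. Mrps25, with a GC content of 45.1%, was the member of the lowest group that fell (-0.57, SE 0.21, adjusted p = 0.0450), and it was called in 1 of 6 fits that left out a library.

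The relation was seen library by library. Over the 16274 genes with a value, the Spearman correlation of a library's deviations with GC content was -0.64, -0.71 and -0.49 in 12-month knockout. In 12-month wild type it was 0.58, 0.40 and 0.61. It was not computed over the members alone. At P28 it was 0.39, 0.43 and 0.26 in wild type and 0.14, 0.24 and -0.43 in knockout, so P28 knockout library 3 went with the older knockouts. In 12-month knockout library 2 the median deviation of the 26 members of highest GC content was -0.73, against -0.21 and -0.14 in libraries 1 and 3, and that of the 26 of lowest GC content was -0.09, 0.08 and -0.02 in libraries 2, 1 and 3.

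With the GC and length trend removed, 3 members fell at 12 months (Mrpl10, Mrpl27 and Mrpl48; 3.06% of all genes) and 6 rose (Mrpl18, Mrpl37, Mrpl52, Mrpl55, Mrpl57 and Mrps6; 3.56% of all genes). The median was then -0.06. Only Mrpl10 and Mrpl27 were among the 30 called before, at -0.38 and -0.42 (adjusted p = 0.0433 and 0.0428), and 6 of the 30 had an estimate above 0. Mrpl54, Mrps34 and Mrpl4 were then at -0.42, -0.38 and -0.52 (adjusted p = 0.120, 0.0740 and 0.0504). Mrpl10, at the base of the stalk, had wild-type values of 23.8, 21.6 and 25.04 CPM and knockout values of 14.6, 11.04 and 16.2 CPM. Mrpl27, next to the peptidyl transferase centre, was at 16.1, 13.4 and 14.5 CPM against 9.28, 7.15 and 8.72 CPM. Both were lower without overlap at P28 as well.

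**Figure D5:**
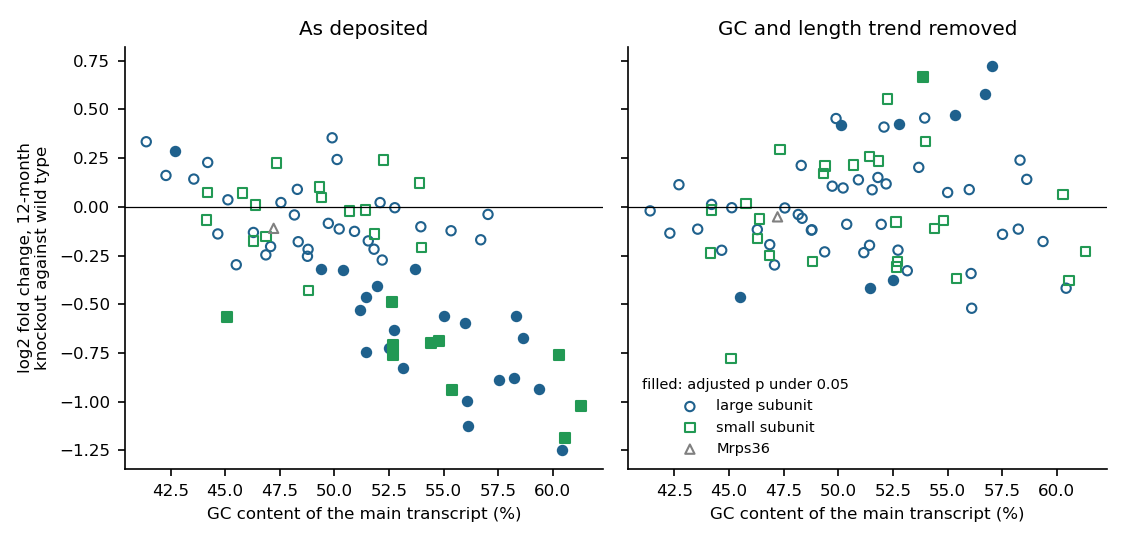
12-month log2 fold change of the 78 Mrp genes against the GC content of the main transcript, with deposited values (left) and after removal of the GC and length trend (right), filled where the adjusted p was under 0.05. On the left the filled points crowd to high GC content (Spearman -0.65); on the right 3 lower and 6 higher genes are filled.

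The count at 12 months also rested on single libraries. It was 14 without knockout library 2, 16 without wild-type library 1 and 18 without wild-type library 3, and 12 members were called in all 6 fits that left out a library (Mrpl10, Mrpl11, Mrpl12, Mrpl27, Mrpl38, Mrpl4, Mrpl54, Mrps21, Mrps26, Mrps28, Mrps34 and Mrps7). With a term for Xist, 25 members fell and 1 rose. The shares of all genes called in the fits without a library and with this term are not given here, so these counts stand without a background.

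To ask whether the knockout effect differed between ages, the difference of the effects was tested. None of 78 members passed (limma), with 0.176% of all genes called. An unadjusted p under 0.05 was found for 11 of 78 members, a smaller share than the 4397 of all 16486 genes tested. Of these 11 members, Mrpl1, Mrpl18, Mrpl30, Mrpl32, Mrpl35, Mrpl50, Mrps2 and Mrps33 had a difference above 0 and Mrpl38, Mrpl4 and Mrps34 below 0. Nearest were Mrpl18, which sits by the central protuberance (difference of effects, 12 months minus P28, 0.62, SE 0.15, adjusted p = 0.0661), Mrpl35 (0.55, SE 0.16, adjusted p = 0.0883) and Mrpl50 (0.43, SE 0.14, adjusted p = 0.0955). For Mrpl18 the P28 wild-type libraries held 27.8, 24.2 and 25.001 CPM and the P28 knockout libraries 20.1, 18.6 and 19.9 CPM. The 12-month values were 19.3, 22.05 and 20.3 CPM for wild type and 25.9, 25.8 and 21.8 CPM for knockout, so the order of the groups was turned, with an overlap at 12 months. Mrps2 was lower without overlap at P28 and higher without overlap at 12 months, and its difference of 0.33 did not pass (SE 0.14, adjusted p = 0.156). Knockout libraries were lower without overlap at both ages in 26 members, at P28 only in 22 and at 12 months only in 14, against 7.66%, 5.57% and 24.5% of all genes. Without P28 knockout library 3, 4 members passed the test of the difference, without 12-month knockout library 3, 1 did, and with quality weights 15 did. The share of all genes called in those fits is not given here.

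In wild type, none of 78 members passed between 12 months and P28 (limma), with 5.4% of all genes called, and the median was -0.04. An unadjusted p under 0.05 was found for 4 of 78 members (Mrpl18, Mrpl45, Mrpl49 and Mrps31), a smaller share than the 3207 of all 16486 genes tested. The nearest was Mrpl49, at 74.6, 64.4 and 67.4 CPM at P28 and 85.6, 81.5 and 89.0 CPM at 12 months (0.31, SE 0.09, adjusted p = 0.0751). In knockout 7 members rose with age and 4 fell (limma), with 27.2% of all genes called, 13.3% higher and 13.9% lower, so 11 of 78 members were called where the background gives 27.2%. With quantile normalization 8 members rose and 2 fell, and the share of all genes called in that fit is not given here. Those that rose were Mrpl1, Mrps6, Mrpl49, Mrps22, Mrpl35, Mrpl50 and Mrpl18, with log2 fold changes of 0.31 to 0.54. Those that fell were Mrps26, Mrps21, Mrpl27 and Mrpl37, at -0.75, -0.60, -0.44 and -0.34. The libraries of the 2 ages overlapped in Mrps22 and Mrps26. With the GC and length trend removed 10 rose and 2 fell, against 11.8% and 10% of all genes, and of the 11 called before, Mrpl1, Mrpl18, Mrpl49, Mrps21 and Mrps6 were called again while Mrps22, Mrpl35, Mrpl50, Mrps26, Mrpl27 and Mrpl37 were not. Mrpl1 led, with knockout values of 18.5, 16.3 and 22.2 CPM at P28 and 30.3, 29.3 and 24.4 CPM at 12 months (0.54, SE 0.13, adjusted p = 0.00974), and it alone was called in all 6 fits that left out a library. The count was 2 without 12-month knockout library 2, 4 without its library 1, 3 and 5 without P28 knockout libraries 1 and 2, and 19 without P28 knockout library 3. A fit of the 2 knockout groups alone called 0 members. For these alternative fits the share of all genes called is not given here. The age comparisons share their libraries with the genotype comparisons and are not independent of them.

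Gene totals can hide shifts between transcripts, so the 343 annotated transcripts of the members were read from the RPKM table, of which 245 were tested. Protein-coding transcripts made up 69.9 to 71.9% of the members' summed RPKM in P28 wild type, 67.3 to 70.1% in P28 knockout, and at 12 months 69.9 to 71.2% for wild type and 68.5 to 71.1% for knockout. Retained-intron transcripts made up 10.3 to 12.3%, 12.5 to 13.7%, 11.6 to 12.6% and 12.2 to 12.8% in the same order. Of the summed RPKM of all transcripts they made up 7.89 to 9.32%, 9.64 to 11.8%, 8.99 to 9.81% and 8.39 to 9.45%. The higher share in P28 knockout, without overlap, was thus seen in the whole table too. At P28 0 of 245 transcripts were called (limma on log2(RPKM + 0.1)), with 0.239% of all transcripts called. An unadjusted p under 0.05 was found for 69 of the 245, and the matching share of all transcripts is not given here. The medians were -0.38 for coding and -0.07 for retained-intron transcripts of the members, against -0.11 and 0.08 for all.

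At 12 months 33 transcripts of members fell and 5 rose, in 32 genes, with 16.2% of all transcripts called, 10% lower and 6.12% higher. Of 130 coding transcripts 23 fell and 1 rose, against 13.6% and 5.92% of all coding transcripts. Of 63 retained-intron transcripts 6 fell and 3 rose, against 6.95% and 8.17% of all of that class. Mrps34-201, the main coding transcript, was at 3.97 ± 0.164 RPKM in wild type and 1.45 ± 0.553 RPKM in knockout (-1.47, SE 0.27, adjusted p = 0.0133). Mrpl54-201 was at 9.06 ± 1.03 RPKM against 2.99 ± 1.19 RPKM (-1.65, SE 0.31, adjusted p = 0.0137). In Mrpl37, whose total was not called, the coding transcript Mrpl37-201 fell from 10.7 ± 0.448 to 7.11 ± 0.945 RPKM and the retained-intron transcript Mrpl37-204 rose from 7.18 ± 0.380 to 9.60 ± 0.906 RPKM (adjusted p = 0.0311 and 0.0320). In Mrpl32 the retained-intron transcript Mrpl32-204 rose from 2.87 ± 0.321 to 5.22 ± 0.456 RPKM (0.84, SE 0.17, adjusted p = 0.0155), and its main transcript, Mrpl32-201, is annotated as a target of nonsense-mediated decay. Values are means ± SD with n = 3. Without a library the number called ran from 1, without wild-type library 1, to 44, and it was 7 without wild-type library 3, 7 without knockout library 2 and 17 without wild-type library 2. The share of all transcripts called in those fits is not given here.

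Other genes of mitochondrial translation were read from the same fits, in which 23.5% of all genes were lower and 16.1% higher at 12 months. At P28 1.49% of all genes were called, and 3533 of 16486 had an unadjusted p under 0.05. With the GC and length trend removed, 3.06% of all genes were lower and 3.56% higher at 12 months. The genes named from these lists were chosen after their values were seen. Of 5 mitoribosomal proteins not named Mrp, 4 were below 0 at P28, with 0 called (limma, 2 at an unadjusted p under 0.05). At 12 months Aurkaip1 fell by 1.27 and Ptcd3, an RNA-binding protein of the small subunit, rose by 0.47. With the GC and length trend removed Aurkaip1 was at -0.52 (adjusted p = 0.0433) and Ptcd3 at 0.20 (adjusted p = 0.0961). Of 18 translation factors 0 were called at P28 (5 at an unadjusted p under 0.05), and at 12 months the membrane insertase Oxa1l fell by 0.54 and the elongation factor Tufm by 0.73, while the initiation factor Mtif2 rose by 0.47 and Guf1 by 0.34. With the trend removed none of these 4 was called, at -0.23, -0.10, 0.19 and 0.10 for Oxa1l, Tufm, Mtif2 and Guf1 (adjusted p = 0.126, 0.555, 0.135 and 0.349). Of the 18 factors 1, Pdf, was then called at 12 months, higher (0.94, adjusted p = 0.0127). At P28 1, Gfm2, was then called, also higher (0.39, adjusted p = 0.0441), against 130 of 16274 genes. Of 27 assembly factors 0 were called at P28 (4 at an unadjusted p under 0.05) with a median of -0.21, and at 12 months 10 fell and 3, Mterf3, Fastkd2 and Gtpbp10, rose, with a median of -0.37. With the trend removed 0 of the 27 were called at 12 months and the median was -0.02. Of 20 genes of mitochondrial tRNA charging 1 was called at P28, Gatc, a subunit of the glutaminyl-tRNA amidotransferase, which fell by 0.38 (adjusted p = 0.0413), and at 12 months 5 fell and 1 rose, or 1 and 2 with the trend removed. Of 13 genes of mitochondrial mass and biogenesis 0 were called at P28 (1 at an unadjusted p under 0.05), and at 12 months 5 rose, among them Ppargc1a and Gabpa (0.44 and 0.59), and 2 fell, Polrmt and Cs. With the trend removed 0 of the 13 were called, with Ppargc1a at 0.06 and Gabpa at 0.20 (adjusted p = 0.684 and 0.243).

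The RNAs of mitochondrial DNA, which the mitochondrial ribosome holds and translates, had estimates below 0 at P28 and above 0 at 12 months. Of 15 mitochondrial genes 15 were below 0 at P28, against 52.3% of all genes, with a median of -0.63 and none called (limma). An unadjusted p under 0.05 was found for 9 of the 15, against 3533 of all 16486 genes tested. With the GC and length trend removed 4 of 15 were called lower at P28 (mt-Nd2, mt-Nd4, mt-Nd4l and mt-Cytb), against 0.897% of all genes, with a median of -0.66. At 12 months all 15 were above 0 with a median of 0.68. Of the 15, 10 rose, against 16.1% of all genes, among them mt-Nd6 by 1.35 and mt-Nd3 by 1.16. With the trend removed 2 of 15 rose at 12 months, against 3.56% of all genes, with a median of 0.23. The difference of the effect between ages was called for mt-Nd2 and mt-Nd3 (1.45 and 1.796, adjusted p = 0.0478 and 0.0244), with 0.176% of all genes called. With the trend removed it was called for neither (1.002 and 1.35, adjusted p = 0.0632 for each). The part of mitochondrial RNA in the Mrp values was not tested.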

How the data were processed

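Poly(A) RNA of mouse retina was measured in 12 libraries. Per the submitters' processing notes, kallisto 0.45.0, tximport 1.30.0, edgeR 4.0.3 and the Ensembl 102 annotation were used on reads of 125 bases from a NextSeq 2000. The notes name a human reference, while the deposited identifiers are mouse. The deposited gene table holds a linear signal, CPM on TMM-adjusted library sizes by the authors. The deposited transcript table holds RPKM, made by steps not given in the sources used here. Neither holds counts, so no count model could be used. Depth was estimated from the value of 1 read, and only 10.99 to 28.6% of low values were whole reads to within 0.01, so reads were not recovered. The floor of 3 reads covers counting error only.

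Genes reaching 1 CPM in 3 or more of the 12 libraries entered limma 3.58.1 (R 4.3.3) as log2(CPM + 1) (4 group means over all libraries, 8 residual degrees of freedom, eBayes with a trend, Benjamini-Hochberg over 16486 genes, threshold 0.05). Fold changes on this scale understate changes of low genes. Transcripts reaching 0.5 RPKM in 3 or more libraries (46931) entered as log2(RPKM + 0.1). The GC and length trend was a spline of 5 degrees of freedom removed from each library, for the 98.7% of genes with both values. Tests were checked on simulated data. Members, lists and tests were chosen with earlier results of these data known. Genes were named by a rule: up to 6 largest rises and falls per comparison that passed without overlap of libraries, members with set roles, and the 3 highest and 3 lowest by RPKM. Others, such as Mrpl51, Mrps35, Mrps25 and the transcripts, were chosen after their values were seen. Of the listed genes Mtrfr and Gtpbp5 were not matched. Python 3.11.15, pandas 2.3.3, numpy 2.4.6 and matplotlib 3.10.9 were used. Replicate numbers are not stated to pair libraries, so no block entered the main model.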

Additional observations from a re-analysis of the deposited data

How the results depend on the processing

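At P28 the 0 Mrp genes called stayed 0 with pseudocounts of 0.1 and 5, no filter, quantile normalization, median-of-ratios rescaling, a fit of the groups compared, an Xist term and the trend removed. It became 1 with a mean CPM of at least 5, 3 with summed RPKM, 15 with array weights and 14 at an adjusted p of 0.10, and 0 to 7 with a library left out. The median moved from -0.32 to -0.18 with the trend removed. At 12 months the 31 called became 9 with the trend removed and 14 to 33 with a library left out, and the median moved from -0.19 to -0.047 with quantile normalization and -0.055 with the trend removed. For the difference between ages the count was 15 with array weights, 3 at an adjusted p of 0.10 and 0 to 4 with a library left out. For age in wild type it was 3 with array weights, 2 in a fit of the groups compared, 1 with the trend removed and 1 at an adjusted p of 0.10. For age in knockout the 11 called became 6 with no filter, 26 with array weights, 0 in a fit of the groups compared, 3 with the Xist term, 20 at an adjusted p of 0.10 and 2 to 19 with a library left out. Member transcripts called at P28 were 1 with an RPKM of at least 1 and 0 to 2 with a library left out, and at 12 months 1 to 44 with a library left out. Of the members named for the size of a called change, none changed direction in the alternatives run, while 6 of the 30 that fell at 12 months, Mrpl58 and Mrps18a among them, had an estimate above 0 with the trend removed. The causes of these moves were not tested. Shares of all genes called are given for the main fit and for some results with the trend removed. Counts under the other settings stand without such a share. Depth was 14.7 to 25.9 M reads, and members near 1 CPM, such as Mrpl54 in 12-month knockout, rest on few reads.

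Libraries share replicate numbers, and the correlation of their deviations was over 0.1 in 0 of 3 pairs at P28 (-0.11 to 0.09), 2 of 3 at 12 months (0.10 to 0.31), 1 of 3 for age in wild type (-0.08 to 0.20) and 0 of 3 for age in knockout (-0.33 to 0.02). With 3 pairs a comparison, these values cannot settle whether the numbers pair libraries, and at 12 months all 3 were above 0. With a replicate block 0 Mrp genes were called at P28, 30 at 12 months, 0 for the difference between ages, 0 for age in wild type and 7 for age in knockout, and 0 and 35 member transcripts at P28 and 12 months. With the replicate block and the trend removed, the counts were 0, 2, 0, 1 and 6 genes in the same order, with medians of -0.18 at P28 and -0.055 at 12 months.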
